A study of Mus musculus with 4 samples.

Results

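Histone lysine demethylases, lysine methyltransferases and deacetylases were examined in mouse CD4+ T cells that lacked Bfar, which encodes an ER-resident E3 ubiquitin ligase, and in wild-type cells. The genes were chosen by symbol: every gene listed in all 4 tables whose symbol starts with Kdm, Kmt, Hdac, Setd or Ezh followed by a digit. The rule found 45 genes of the 14469 listed in all 4 tables, namely 18 Kdm, 5 Kmt, 11 Hdac, 9 Setd and 2 Ezh genes. The study compared 2 wild-type libraries with 2 libraries labelled BFAR-/-, all from C57BL/6 mice aged 6 to 8 weeks. The protocol describes the deficiency as conditional in T cells. The sources used here name neither the driver of the deletion, nor the exons removed, nor any allele that the controls also carry. Naive CD4+ cells with low CD44 and high CD62L were sorted from spleen and lymph nodes and kept for 3 days with antibodies to CD3 and CD28 under Th9 conditions, which drive helper T cells toward interleukin 9 production. Nothing in the labels ties the 2 replicates of a group to different mice. The p-values therefore reflect no more than the spread between the libraries, and this may be technical.

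The enzymes write and erase marks on histone tails. The Setd1 proteins and the Kmt2 proteins other than Kmt2e are catalytic subunits of COMPASS-type complexes. These complexes methylate lysine K4 of histone H3 (H3K4) at promoters and enhancers. Ezh2 or its relative Ezh1 is the catalytic subunit of Polycomb repressive complex PRC2, which methylates H3K27 and silences lineage genes in helper T cells. Most Kdm proteins carry a JmjC domain and need oxygen, iron and 2-oxoglutarate, the same substrates as the hydroxylases that mark hypoxia-inducible factor (HIF) for destruction, while Kdm1a and Kdm1b use flavin. Several JmjC genes, Kdm3a among the best known, are themselves HIF targets. The zinc-dependent Hdac enzymes remove acetyl groups and are split into class I (Hdac1, Hdac2, Hdac3, Hdac8), class IIa (Hdac4, Hdac5, Hdac7, Hdac9), class IIb (Hdac6, Hdac10) and class IV (Hdac11).

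The libraries held 19058009 to 19782923 expected counts, the estimated reads per gene given by RSEM. Bfar itself matched the labels, with 721.8 and 651.3 counts in wild type against 163 and 148 in knockout (log2 -2.09 ± 0.09, SE; edgeR adjusted p = 5.38e-10). Of 10 T cell markers 7 were listed, with a summed level of 1877 and 1898 CPM (counts scaled to the size of each library) in wild type and 2101 and 2056 in knockout. Of these 7, 4 rose, where 13.6% of all tested genes rose. Cd4 rose by 0.23 ± 0.04 on the log2 scale and Cd28 by 0.34 ± 0.04 (SE; edgeR adjusted p = 0.0003 and 3.21e-05). Lck, Cd3d and Zap70 were not called, with log2 fold changes of -0.05, 0.04 and 0.11. Markers of B cells summed to 4.42 to 5.31 CPM, myeloid and dendritic markers to at most 2.02 CPM, and CD8 and natural killer markers to 12.9 to 14.7 CPM, with Lyz2, Csf1r, Elane and Ncr1 not listed. In bulk libraries, fewer cells of a type and less RNA per cell cannot be told apart.

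In the knockout libraries, 11 of the 45 genes rose and 8 fell, and all of these changes were small, from 1.09-fold to 1.24-fold. JmjC demethylases made up 7 of the 11 rises (Kdm3a, Kdm4b, Kdm4c, Kdm5a, Kdm5b, Kdm6b and Kdm7a), joined by the methyltransferase genes Kmt2c, Kmt2e and Ezh1 and the class IIa deacetylase gene Hdac4. The falls were the class I deacetylase genes Hdac1 and Hdac2, the class IIb gene Hdac10, the methyltransferase genes Ezh2, Setd1a, Setd6 and Setd8, and the flavin-dependent demethylase gene Kdm1a. All 45 genes passed the filter on low counts. The 19 called genes were 42.2% of the set, beside 26.8% of all 12677 tested genes; 24.4% of the set rose beside 13.6% of all genes, and 17.8% fell beside 13.2% of all genes (edgeR quasi-likelihood test, Benjamini-Hochberg adjusted p under 0.05). The median log2 fold change was 0.03 in the set and -0.00235 over all tested genes. CPM values of the groups did not overlap for 35 of the 45 genes, 77.8%, beside 63.5% of all tested genes. Leaving out 1 library lowered the rises to between 4 and 7 and the falls to between 3 and 5, the fewest in both cases without knockout replicate 2. In DESeq2, 5 rose and 4 fell, and in limma on filtered log2(FPKM + 0.1) 4 rose and 6 fell. Removing trends with transcript length and GC content left 6 rises and 8 falls.

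**Figure D1:**
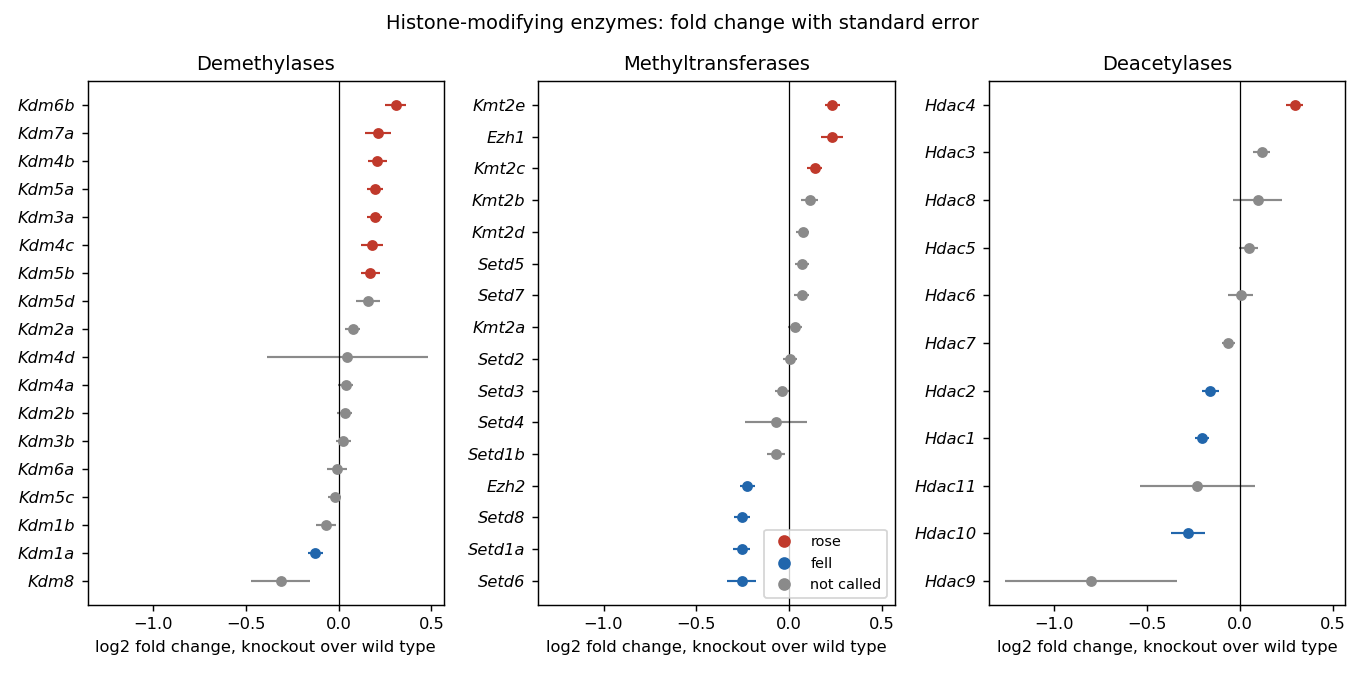
Log2 fold change, knockout over wild type, of each of the 45 genes (points, with standard error as bars; n = 2 libraries per group), in panels for demethylases, methyltransferases and deacetylases. Red points rose, blue points fell and grey points were not called by edgeR; in the demethylase panel 7 points are red and 1 is blue.

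Levels differed widely on the length-corrected FPKM scale (fragments per kilobase of transcript, scaled to library size). Hdac1 was the most abundant gene, with a mean of 121 FPKM over the 4 libraries, followed by Hdac7 with 118 FPKM and Ezh2 with 74.1 FPKM. Within the wild-type group Hdac1 (127.7 and 131 FPKM) lay above Hdac7 (122.9 and 118.6 FPKM), whereas in the knockout group Hdac1 (113 and 111 FPKM) lay below Hdac7 (116.3 and 113.8 FPKM). At the other end, Hdac11, Kdm4d and Hdac9 stayed under 2 CPM in every library. Hdac9 had 11, 18, 9 and 7.34 expected counts and Kdm4d 13, 10, 13 and 10 (wild type 1 and 2, knockout 1 and 2), so a difference of the size seen elsewhere in the set was not detectable for them. In all, 23 of the 45 genes exceeded 100 CPM in every library.

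**Figure D2:**
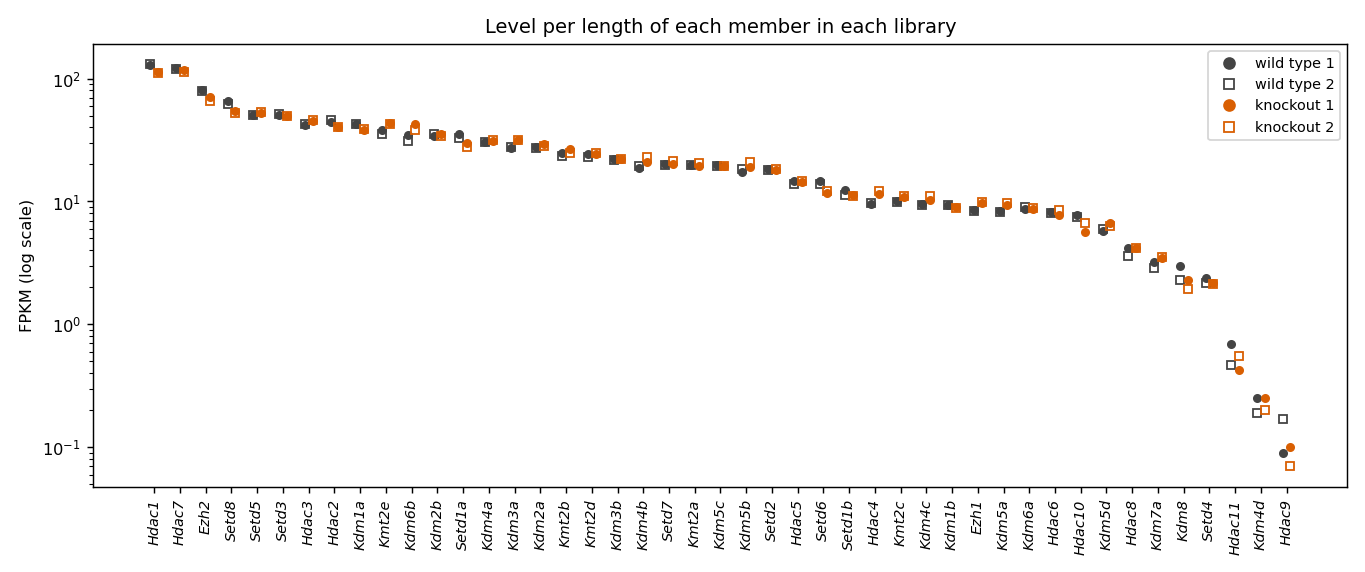
FPKM (log axis) of each gene in each of the 4 libraries, ordered by the mean over libraries; black symbols are wild type and orange symbols knockout. Hdac1 and Hdac7 stand at the top near 120 FPKM and Hdac11, Kdm4d and Hdac9 below 1 FPKM.

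Kdm3a (gene 104263, chromosome 6, 71588970 to 71632990, GRCm38) encodes a demethylase of mono- and dimethylated H3K9 and is a textbook HIF target. Its promoter is shown because the gene is the reference hypoxia-responsive demethylase. It is printed beside those of Kdm4c and Kdm5b, which also rose, from 250 bases before to 50 after an annotated start (RefSeq, GRCm38.p6). Kdm3a has 3 annotated starts, of which the most upstream is shown. For Kdm4c, with 2, the downstream one was chosen after its matches were seen. Capitals mark ACGTG or GCGTG on either strand, the core letters of hypoxia response elements.
Kdm3a, chr6:71632868-71633167, minus strand: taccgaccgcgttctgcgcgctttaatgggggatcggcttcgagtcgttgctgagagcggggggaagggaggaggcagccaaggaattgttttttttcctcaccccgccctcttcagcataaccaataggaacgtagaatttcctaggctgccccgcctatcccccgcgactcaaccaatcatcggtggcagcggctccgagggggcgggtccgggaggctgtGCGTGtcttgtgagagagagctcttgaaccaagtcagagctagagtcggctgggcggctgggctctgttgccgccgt
Kdm4c, chr4:74251629-74251928, plus strand, the more downstream of 2 annotated starts: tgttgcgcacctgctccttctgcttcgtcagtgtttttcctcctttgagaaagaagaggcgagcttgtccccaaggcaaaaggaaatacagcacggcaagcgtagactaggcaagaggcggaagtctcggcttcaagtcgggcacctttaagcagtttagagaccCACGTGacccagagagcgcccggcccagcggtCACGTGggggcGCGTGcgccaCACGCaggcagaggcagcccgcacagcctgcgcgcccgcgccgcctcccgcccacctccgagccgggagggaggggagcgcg
Kdm5b, chr1:134559928-134560227, plus strand: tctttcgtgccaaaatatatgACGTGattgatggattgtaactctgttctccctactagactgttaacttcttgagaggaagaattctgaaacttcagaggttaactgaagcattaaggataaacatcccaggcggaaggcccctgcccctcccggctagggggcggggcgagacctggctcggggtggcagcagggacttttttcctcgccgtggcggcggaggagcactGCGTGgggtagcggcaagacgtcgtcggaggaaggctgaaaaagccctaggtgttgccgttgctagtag
The Kdm3a window shown holds a single GCGTG, beginning at position -27, and no ACGTG; the windows of its other 2 starts hold neither. The Kdm4c window holds ACGTG inside 2 copies of the palindrome CACGTG, so each copy matches on both strands, and GCGTG 2 times; the window of its more upstream start holds neither. The window of Kdm5b holds ACGTG at -229 and GCGTG at -19. ACGTG occurs in 19.6% and GCGTG in 32.4% of all 32851 RefSeq windows of this length. Promoter entries were found for 34 of the 45 genes. ACGTG was present for 3 of the 7 risen and 1 of the 6 fallen genes with an entry, and GCGTG for 6 of 7 and 4 of 6. Over all 34 genes, called or not, ACGTG was present for 8 and GCGTG for 21. A gene was counted if any of its windows held the letters, so these counts are not on the scale of the shares of windows. By window, ACGTG occurred in 17% and GCGTG in 53.2% of the 47 windows of the set. A match is a description of the letters only, and Kdm4b, Kdm5a and Kdm6b have no entry.

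Kdm3a had 133.5 and 135.8 CPM in wild type and 153.8 and 154.3 CPM in knockout. Both knockout libraries lay above both wild-type libraries, and the gap between groups was far wider than the gap within either. The gene rose 1.14-fold, by 0.19 ± 0.04 on the log2 scale (SE, n = 2 per group; edgeR adjusted p = 0.00213), and it passed without any 1 library (0.18 to 0.21; highest adjusted p = 0.0421). Its paralog Kdm3b (157.8 and 156.5 against 159.8 and 160.3 CPM) had a log2 fold change of 0.03 ± 0.04 (adjusted p = 0.664). The ratio of Kdm3a to Kdm3b on the FPKM scale was 1.24 and 1.28 in wild type and 1.42 in both knockout libraries.

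Of 6 demethylases listed as known to respond to hypoxia in various cells, 5 rose and none fell: Kdm3a, Kdm4b, Kdm4c, Kdm5b and Kdm6b. The list was drawn up with earlier results of these data known, so its count is a description only. The median log2 fold change of the 6 was 0.19. Over all 16 JmjC Kdm genes 7 rose and none fell, and over all tested genes 13.6% rose. Kdm6b, a demethylase of H3K27 also known as Jmjd3, had 233.7 and 208.1 CPM in wild type and 289.3 and 257.2 CPM in knockout. The spread within each group was wide, yet the lower knockout library exceeded the higher wild-type one, and the log2 fold change was 0.31 ± 0.06 (adjusted p = 0.00101). Without 1 library the value ran from 0.22 (without knockout replicate 1) to 0.39 (without wild type replicate 1). Kdm6b was not called in DESeq2 (adjusted p = 0.0666) or in edgeR without a filter on low counts (0.0591). Nor was it called in limma on filtered log2(FPKM + 0.1) (0.0565). Kdm6a, the X-linked H3K27 demethylase Utx, had 52 and 53.9 against 52.1 and 53.1 CPM, with groups that overlapped and a log2 fold change of -0.01 ± 0.05 (adjusted p = 0.922).

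Kdm4b, which removes trimethyl marks from H3K9, had 87 and 89.9 CPM in wild type and 97.2 and 107.1 CPM in knockout (log2 0.21 ± 0.05, edgeR adjusted p = 0.00664). Kdm4c, an enzyme of the same subfamily, had 41 and 40 against 44.1 and 47.7 CPM (0.18 ± 0.06, adjusted p = 0.0353). Kdm5b, an H3K4 demethylase, had 110.1 and 116.4 against 121.1 and 133.9 CPM (0.17 ± 0.05, adjusted p = 0.0207). In all 3 genes knockout replicate 2 was the highest library, and none of the calls held without it (adjusted p = 0.127, 0.249 and 0.272). Calls on Kdm4b and Kdm5b were also lost without wild type replicate 1 (0.0703 and 0.184), and the call on Kdm4c was lost whichever library was left out. That on Kdm6b was lost without knockout replicate 1 (0.0794), its highest library. Kdm2b, an H3K36 demethylase of a variant Polycomb complex PRC1, did not pass, with 149.4 and 154.2 against 156.3 and 154.2 CPM (0.03 ± 0.04, adjusted p = 0.601). The number of these 6 genes that rose was 2 to 4 with 1 library left out (2 without wild type replicate 1 or without knockout replicate 2, 3 without knockout replicate 1), 2 in DESeq2, and 3 with length and GC trends removed.

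Genes of the HIF system rose in the same libraries. Of 9 tested HIF subunits and regulators 7 rose and none fell, where 13.6% of all genes rose. Hif1a, the inducible subunit, rose by 0.38 ± 0.04 on the log2 scale (adjusted p = 1.97e-06), Hif3a by 0.70 ± 0.07 (5.18e-06) and the prolyl hydroxylase gene Egln3, itself a HIF target, by 0.38 ± 0.04 (1.57e-06). Of 27 HIF targets outside the set, 2 of which (Egln1 and Egln3) are also regulators, 16 rose and none fell, with a median log2 fold change of 0.17. The glucose transporter gene Slc2a3 rose by 1.02 ± 0.04, Ndrg1 by 0.99 ± 0.04 and Ero1l by 0.51 ± 0.03. The other 11 targets were not called. Among them were Ldha, Ankrd37, Pgk1 and Tpi1, with log2 fold changes of -0.08, -0.19, 0.06 and 0.02. The targets that rose numbered 10 without knockout replicate 2, where 1 fell. Whether the HIF genes had a part in the values of the demethylases was not tested.

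**Figure D3:**
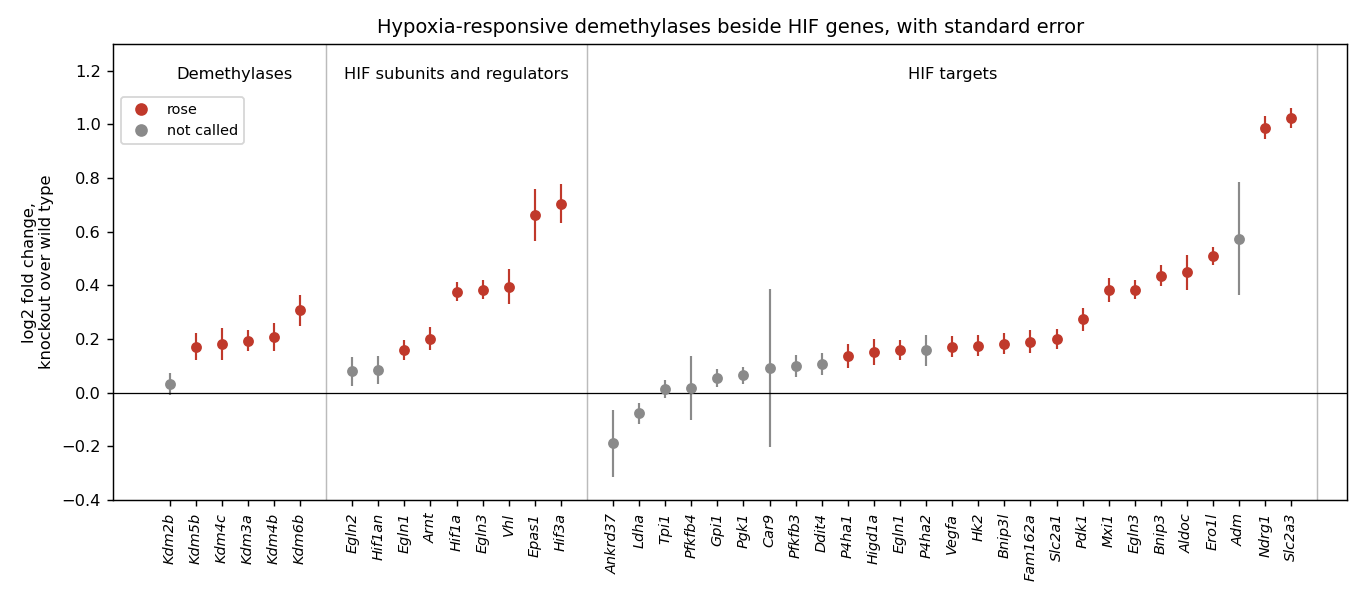
Log2 fold change, knockout over wild type, with standard error (n = 2 libraries per group), of 6 hypoxia-responsive demethylases, 9 HIF subunits and regulators and 27 HIF targets; Egln1 and Egln3 appear in both HIF groups. Red points rose and grey points were not called; Kdm6b is the highest demethylase at 0.31 and Slc2a3 the highest target at 1.02.

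Among the remaining demethylases, Kdm5a and Kdm7a rose. Kdm5a, an H3K4 demethylase first described as a partner of the retinoblastoma protein, had 92.7 and 91.8 CPM in wild type and 103 and 108 CPM in knockout (log2 0.20 ± 0.04, edgeR adjusted p = 0.0039). Kdm7a, which acts on H3K9 and H3K27, had 30.8 and 27.6 against 33.5 and 34.2 CPM (0.21 ± 0.07, adjusted p = 0.0349). Both genes were higher in each knockout library, but the call on Kdm5a was lost without knockout replicate 2 (0.0718), and that on Kdm7a without either knockout library (0.136 and 0.199) and without wild type replicate 2 (0.28). Kdm1a, also known as Lsd1, fell from 129 CPM in both wild-type libraries to 117.2 and 119.4 CPM (-0.12 ± 0.04, adjusted p = 0.0342), a call lost whichever library was left out (adjusted p of 0.104 to 0.158). The H3K4 demethylase genes on the sex chromosomes were not called: X-linked Kdm5c had 220.5 and 218.5 against 215.9 and 216.5 CPM, and Y-linked Kdm5d 31.8 and 33 against 37.3 and 35 CPM (0.16 ± 0.06, adjusted p = 0.0866). Kdm1b, Kdm2a, Kdm4a, Kdm4d and Kdm8 ranged from -0.31 ± 0.16 for Kdm8, whose groups overlapped, to 0.08 ± 0.04 for Kdm2a, and none passed.

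The 2 catalytic subunits of PRC2 went opposite ways. Ezh2 (gene 14056, chromosome 6, 47530274 to 47595270), the form that predominates in dividing cells, had 214.3 and 212.7 CPM in wild type and 188.4 and 176.8 CPM in knockout, a fall (log2 fold change -0.23 ± 0.04, edgeR adjusted p = 0.000913). Ezh1 (gene 14055, chromosome 11, 101191115 to 101226463), known from resting cells, had 36.2 and 35.3 against 41.5 and 42.2 CPM, a rise (log2 fold change 0.23 ± 0.06, adjusted p = 0.00932). Neither pair of groups overlapped. On the FPKM scale there were 9.43 and 9.61 units of Ezh2 for each of Ezh1 in wild type and 7.23 and 6.67 in knockout. The call on Ezh2 held without any 1 library; that on Ezh1 was lost without either knockout library (0.0545 and 0.0854) and without wild type replicate 2 (0.0703), and in DESeq2 (0.152).
The promoters of the pair are shown for comparison, with ACGTG and GCGTG in capitals as before and, for Ezh2, also TTTGGCGC, one of the letter forms of E2F sites.
Ezh2, chr6:47594981-47595280, minus strand: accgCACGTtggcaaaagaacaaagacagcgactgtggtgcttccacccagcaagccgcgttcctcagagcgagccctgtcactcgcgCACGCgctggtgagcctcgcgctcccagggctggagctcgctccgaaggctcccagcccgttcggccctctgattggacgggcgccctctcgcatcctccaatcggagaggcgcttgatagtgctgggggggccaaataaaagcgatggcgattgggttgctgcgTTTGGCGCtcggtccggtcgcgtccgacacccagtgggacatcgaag
Ezh1, chr11:101226414-101226713, minus strand: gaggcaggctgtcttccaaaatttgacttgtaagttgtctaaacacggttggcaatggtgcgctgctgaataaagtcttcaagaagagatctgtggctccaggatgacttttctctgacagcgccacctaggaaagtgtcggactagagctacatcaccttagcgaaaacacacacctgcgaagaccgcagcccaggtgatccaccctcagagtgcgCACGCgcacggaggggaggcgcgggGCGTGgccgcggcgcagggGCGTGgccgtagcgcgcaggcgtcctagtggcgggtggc
The E2F letters TTTGGCGC, TTTCCCGC, TTTCGCGC and TTTGCCGC were searched on both strands. Ezh2 was the only one of the 34 genes with an entry to hold any of them, TTTGGCGC at position 4 after the start. That is 1 of the 47 windows of the set, or 2.13%. Over all windows the forms were found in 0.514%, 1.07%, 0.323% and 0.441%, in the order named. With 4 forms searched, 1 match does not set Ezh2 apart. The Ezh1 window holds GCGTG 3 times and none of the E2F letters.

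Of 9 tested partners of PRC2 3 fell and 1 rose, where 13.2% of all genes fell and 13.6% rose. Rbbp4, a histone chaperone shared with deacetylase complexes, fell by 0.22 ± 0.04 (adjusted p = 0.000438), and Rbbp7 by 0.15 ± 0.04 (0.00726), while Jarid2, an accessory subunit, rose by 0.17 ± 0.04 (0.00852). Rbbp7 did not pass when wild type replicate 2 or knockout replicate 1 was left out (highest adjusted p = 0.0835), nor Jarid2 when wild type replicate 1 or knockout replicate 2 was (0.087). Eed also fell, and the core subunit gene Suz12 had a log2 fold change of -0.03 ± 0.04 (adjusted p = 0.654). Cell cycle genes, a class to which Ezh2 expression is tied, fell in part in the same libraries. Of 20 such genes 10 fell and 1 (Bub1) rose, with a median of -0.11, where 13.2% of all genes fell and 13.6% rose. The other 9 were not called, among them Mki67, Top2a and Pcna, with log2 fold changes of -0.03, -0.03 and -0.00238. Ccne1 fell by 0.46 ± 0.05, Plk1 by 0.30 ± 0.04 and Cdc20 by 0.26 ± 0.04 (adjusted p = 1.75e-05, 9.33e-05 and 0.000312). The falls numbered 6 without knockout replicate 1 and 5 without knockout replicate 2. Their part in the fall of Ezh2 was not tested.

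Of 8 genes grouped as H3K4 methyltransferases 2 rose (Kmt2c and Kmt2e) and 1 fell (Setd1a). The share called was 37.5%, beside 26.8% of all tested genes, of which 13.6% rose and 13.2% fell. Kmt2e (Mll5), a family member that lacks clear catalytic activity, had 279.9 and 259.5 CPM in wild type and 317.4 and 316.1 CPM in knockout (log2 0.23 ± 0.04, edgeR adjusted p = 0.000724), a call that held without any 1 library. Its exons overlap those of Srpk2 on the opposite strand over 9.31% of their bases, Srpk2 rose as well (0.29 ± 0.06), and the sources used here do not state whether counting used strand, so the value of Kmt2e is uncertain to that extent. Kmt2c (Mll3), an enhancer methyltransferase, had 170.5 and 169.8 against 185.2 and 188.8 CPM (0.14 ± 0.04, adjusted p = 0.0162). That call was lost whichever library was left out (0.0614 to 0.117), and the fold change was 0.02 (0.73) with length and GC trends removed. Kmt2a, Kmt2b and Kmt2d lay between 0.03 and 0.11 and were not called.

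Setd1a, the promoter methyltransferase, had 213 and 197.8 CPM in wild type and 178.3 and 165.6 CPM in knockout (log2 -0.26 ± 0.05, edgeR adjusted p = 0.000932). The groups were apart, and without knockout replicate 2, the lowest library, the adjusted p was 0.069. Its paralog Setd1b had 110.8 and 101.6 against 102.4 and 99.7 CPM and overlapping groups (-0.07 ± 0.05, adjusted p = 0.295). Of 12 COMPASS partners 5 fell and none rose, and all 12 had a log2 fold change below 0; of all 12677 tested genes 13.2% fell and 6389 lay below 0. Paxip1 fell by 0.19 ± 0.04 (adjusted p = 0.00339), the scaffold gene Wdr5 by 0.18 ± 0.05 (0.0104) and the CpG-binding subunit gene Cxxc1 by 0.16 ± 0.05 (0.0182). Without 1 library the falls numbered 0 to 2 (0 without knockout replicate 2, 1 without wild type replicate 2, 2 without wild type replicate 1 or knockout replicate 1), and in DESeq2 there was 1.

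Setd8, also called Kmt5a, is the enzyme that adds a single methyl group to H4K20 around mitosis. It had 177 and 168.4 CPM in wild type and 147.9 and 141.9 CPM in knockout, all knockout values below all wild-type values (log2 -0.25 ± 0.04, edgeR adjusted p = 0.000454), and the call held without any 1 library. Setd6, which methylates the NF-kB subunit RelA, had 24.4 and 22.9 against 19.4 and 20.2 CPM (-0.26 ± 0.08, adjusted p = 0.026). Its call was lost without either knockout library (0.165 and 0.111) and without wild type replicate 1 (0.156). Setd2, the main enzyme of H3K36 trimethylation, had 156.1 and 152 against 153.7 and 155.2 CPM and overlapping groups (adjusted p = 0.955). Setd3, known as an actin methyltransferase, Setd4, Setd5 and Setd7 had log2 fold changes between -0.07 and 0.07 and were not called.

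Class I deacetylase genes fell in part. Hdac1 (gene 433759, chromosome 4, 129516104 to 129542646) had 250.9 and 257.6 CPM in wild type and 222.8 and 219.2 CPM in knockout, a fall of 1.15-fold (log2 -0.20 ± 0.04, edgeR adjusted p = 0.00106) that passed without any 1 library. Hdac2, its partner in the Sin3, NuRD and CoREST complexes, had 89.1 and 91.5 against 80.1 and 81.5 CPM (-0.16 ± 0.04, adjusted p = 0.0148), a call lost whichever library was left out (0.0502 to 0.117) and in DESeq2 (0.15). Hdac3, which works in the NCoR complex, had 83.6 and 84.8 against 90.4 and 92 CPM. Its groups did not overlap and its log2 fold change was 0.12 ± 0.04, but it missed the threshold (adjusted p = 0.063). The ratio of Hdac1 to Hdac3 on the FPKM scale went from 3.05 and 3.09 to 2.51 and 2.42, whereas that of Hdac1 to Hdac2 was 2.86 and 2.87 in wild type and 2.83 and 2.74 in knockout. Hdac8 had 6.28 to 7.22 CPM, with overlapping groups.

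Hdac4, a class IIa enzyme that shuttles between nucleus and cytoplasm and binds MEF2 factors, had 78.1 and 80.4 CPM in wild type and 95.1 and 99.4 CPM in knockout. Both knockout libraries were higher by much more than the replicates differed (log2 0.29 ± 0.05, edgeR adjusted p = 0.000234), and the call held without any 1 library. Hdac7, the class IIa enzyme known from thymocytes, had 525.6 and 508.4 against 499.7 and 489.9 CPM (-0.06 ± 0.04, adjusted p = 0.214). The ratio of Hdac7 to Hdac4 on the FPKM scale was 12.9 and 12.1 in wild type and 10.1 and 9.43 in knockout. Hdac10, a class IIb enzyme that acts on polyamines, fell from 20.1 and 19.3 to 15 and 17.5 CPM (-0.28 ± 0.09, adjusted p = 0.036), a call lost whichever library was left out (0.0559 to 0.285). The tubulin deacetylase gene Hdac6 had 34 and 33.4 against 32.1 and 35.4 CPM, and Hdac5 56.7 and 54.3 against 57.2 and 57.5 CPM; neither was called. Of 20 subunits of deacetylase corepressor complexes 2 rose and 2 fell, a share of 20% beside 26.8% of all genes. The NuRD genes Mbd3 and Mta2 fell by 0.24 ± 0.04 and 0.17 ± 0.04 (adjusted p = 0.00108 and 0.00364), and Rcor2 of CoREST rose by 0.47 ± 0.12 (0.00994); without knockout replicate 2 none of the 20 passed.

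**Figure D4:**
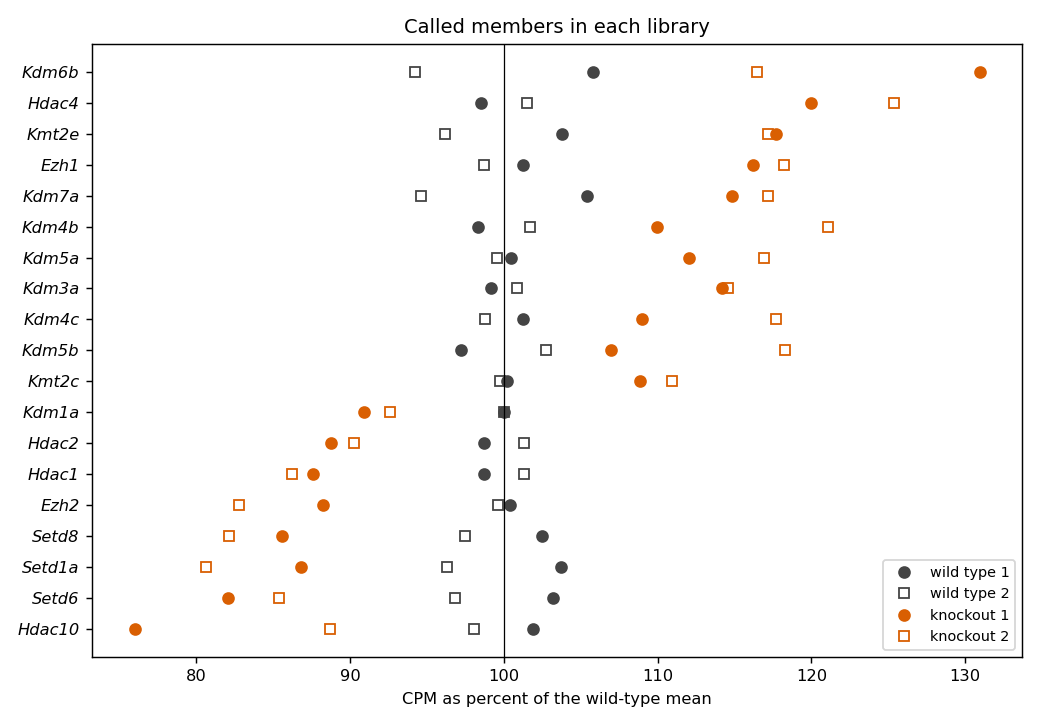
CPM of the 19 called genes in each library as a percent of the wild-type mean of the gene; black symbols are wild type, orange symbols knockout, filled circles replicate 1 and open squares replicate 2. The 19 genes were picked by their calls in these same libraries, and groups are apart for all of them. CPM groups are also apart for 16 of the 26 genes not called and for 63.5% of all tested genes. The replicates of Kdm6b and Hdac10 are spread most widely in the knockout group.

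Summed over the 16 JmjC Kdm genes, FPKM was 271 and 268 in wild type and 292 and 290.5 in knockout; over the 16 methyltransferase genes it was 476 and 462 against 454 and 448, and over the 11 Hdac genes 382 and 381 against 359 and 358. The groups did not overlap in any of the 3 sums, whose percent changes were 8.05%, -3.84% and -6.14%. For single genes, CPM values of the groups did not overlap for 63.5% of all tested genes. Abundant genes weigh most in such sums: mean FPKM went from 129 to 112 for Hdac1, 80 to 68.1 for Ezh2 and 64.1 to 53.2 for Setd8. Log2 fold changes lay above 0 for 13 and below 0 for 3 of the JmjC Kdm genes. The numbers were 9 and 7 for the methyltransferase genes, and 5 and 6 for the Hdac genes.

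Called genes differed in transcript length. The 11 risen genes had lengths of 4224 to 16820 bases in the deposited tables, with a median of 6654, and the 8 fallen genes 1669 to 5934 bases, with a median of 2635. Over all tested genes the medians were 3476 bases among those that rose and 2640 among those that fell. Spearman's rho between length and log2 fold change was 0.46 over the 45 genes and 0.11 over all 12677, where genes share libraries and are not independent. With trends on length and GC content removed, Kdm4c, Kdm5a, Kdm5b, Kdm7a and Kmt2c were not called, whereas Kdm3a kept a log2 fold change of 0.14 (adjusted p = 0.0101).

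**Figure D5:**
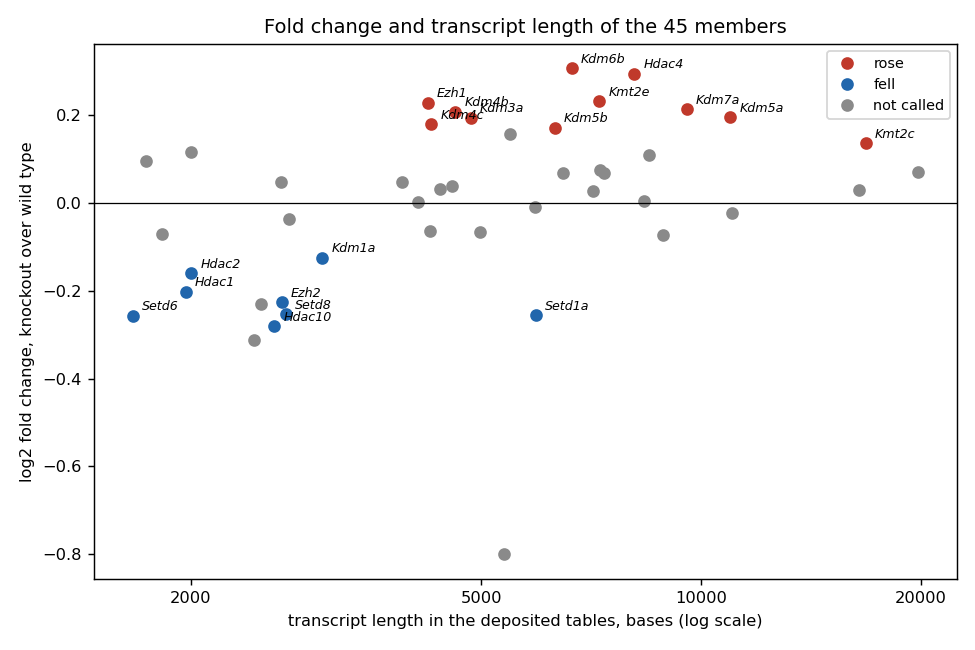
Log2 fold change, knockout over wild type, against transcript length in bases (log axis) for the 45 genes; red points rose, blue points fell and grey points were not called. Risen genes lie at 4224 bases and above, and 7 of the 8 fallen genes lie at 3030 bases and below, Setd1a being the other.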

How the data were processed

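Each library was deposited as a table of genes, one per sample, holding transcript length, expected counts and FPKM, per the file headers. Bowtie, RSEM and the build GRCm38 (mm10) are named in the submitters' processing notes; the sources used here give no version, annotation release or strand setting. The deposited expected counts are estimates that split shared reads between transcripts, and the deposited FPKM values are scaled by length and depth, per the file headers. A gene missing from a table was set to 0. Here expected counts were rounded and tested over all genes with edgeR 4.0.16 in R 4.3.3 (TMM, default filterByExpr with minimum count 10 and total 15, quasi-likelihood test of genotype, two-sided, Benjamini-Hochberg adjustment at 0.05), which kept 12677 genes. Standard errors were taken as |log2 fold change| / sqrt(F), and CPM was computed on TMM-adjusted totals. The common coefficient of variation was 2.89%, and 3 counts in a library equal 0.152 to 0.157 CPM. DESeq2 1.42.0, limma 3.58.1 on log2(FPKM + 0.1) and log2(FPKM + 1), other scalings and filters, each library left out and a replicate block served as alternatives. The code was tested on simulated data. The genes and lists were chosen with earlier results of these data known. Values in every library are given for called genes with an absolute log2 fold change of at least 0.25, the hypoxia-responsive demethylases, Ezh1, Ezh2 and Hdac1, and up to 3 called genes are named per list; other genes were named after their values were seen. No gene shared over 2.8% of its 31-base words with another listed gene in GENCODE M21 transcripts.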

Additional observations from a re-analysis of the deposited data

How the results depend on the processing

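All 19 called genes kept their sign under all 14 alternatives, and none reversed, but none kept its call under every one. Of the 45 genes, 11 rose and 8 fell in the reported test. DESeq2 gave 5 and 4, edgeR without a filter on low counts 6 and 4, limma on unfiltered FPKM 0 and 0, and leaving out 1 library 4 to 7 and 3 to 5. Limma on filtered FPKM gave 4 rises and 6 falls with a pseudocount of 0.1 and 4 and 6 with 1, so that falls outnumbered rises, and removing length and GC trends, chosen after seeing the data, gave 6 rises and 8 falls. Over all genes 1728 rose and 1670 fell; DESeq2 gave 839 and 730, no filter 1051 and 877, unfiltered FPKM 143 and 116, and leaving out 1 library 812 to 1243 and 629 to 1112. Filtered FPKM gave 1019 rises and 1120 falls with a pseudocount of 0.1 and 1031 and 1140 with 1, and with length and GC trends removed 1452 rose and 2243 fell. The 5 rises among hypoxia-responsive demethylases became 2 in DESeq2, 1 without a filter, 1 and 1 on filtered FPKM, 0 on unfiltered FPKM, 3 with length and GC trends removed, and 2 to 4 with 1 library left out. Of the HIF targets 16 rose; 5 did on unfiltered FPKM and 10 to 16 with 1 library left out, with 0 to 1 falling. Kdm3a on unfiltered FPKM had 0.19 (limma adjusted p = 0.0587). The cause of these differences was not tested. Leaving out 1 library leaves a lone sample in its group, assumed to vary like the other group.

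Replicate numbers are shared between the groups, but nothing shows that they pair samples: the correlation of deviations between same-numbered libraries was 0.00673. With the number as a replicate block, 13 of the 45 genes rose and 8 fell, over all genes 1977 and 1975, and Kdm3a had 0.19 (edgeR adjusted p = 0.000372). With 2 libraries per group no permutation test of a single gene could pass. Hdac9, Hdac11 and Kdm4d, under 2 CPM in every library, are limited by depth, where 3 counts equal 0.152 to 0.157 CPM.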

Other observations

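Of 13 acetyltransferases 11 were not called, 1 rose and 1 fell, a share called of 15.4% beside 26.8% of all tested genes: Kat6b (Morf) rose from 48.9 and 49.8 to 58.5 and 60.9 CPM (log2 0.28 ± 0.05, edgeR adjusted p = 0.0011), and Kat2a (Gcn5), of the SAGA and ATAC complexes, fell from 86.6 and 81.4 to 70.8 and 68.6 CPM (-0.27 ± 0.05, adjusted p = 0.000844). Of 7 sirtuins, which deacetylate with NAD, Sirt1 fell from 28.1 and 27.6 to 22.1 and 23.2 CPM (-0.30 ± 0.07, adjusted p = 0.00672), a call lost without knockout replicate 1 (highest adjusted p = 0.0812) or knockout replicate 2, and the other 6 did not pass (14.3% called). Among 19 further histone methyltransferases 2 rose and 6 fell, a share called of 42.1%. Whsc1l1 (Nsd3), an H3K36 methyltransferase, rose from 241.6 and 244 to 297.2 and 321.7 CPM (0.35 ± 0.04, adjusted p = 2.68e-05), and the arginine methyltransferase genes Prmt5 and Prmt1 fell by 0.25 ± 0.04 and 0.21 ± 0.04. The count of falls was 3 when wild type replicate 1 was left out, and likewise for either knockout library. Of 8 other JmjC genes Jmjd1c and Jarid2 rose by 0.15 and 0.17 and Mina fell by 0.16, and each of these calls was lost without knockout replicate 2.

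The transcript length that RSEM assigned, an average over a gene's transcripts, differed between libraries for 12 of the 45 genes. For Kdm2b, which has a long and a short form, it was 4359 and 4339 bases in wild type and 4393 and 4481 bases in knockout. For Kdm4a it was 4572 and 4581 against 4534 and 4552 bases. The groups were also apart for Hdac5, Hdac6, Hdac9 and Setd8. In Setd8, a called gene, the length was 2692 and 2685 against 2706 and 2709 bases. These values are descriptions of 2 libraries per group and were not tested.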
